A study of Homo sapiens with 5 samples.

Results

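The AP-1 family genes examined here were the 10 genes FOS, FOSB, FOSL1, FOSL2, JUN, JUNB, JUND, JDP2, BATF and BATF3, out of 20136 protein-coding genes in the annotation. Each gene was given a window from 20 kb upstream of its transcription start site (TSS) to the end of the gene, and every peak that shared a base with a window was taken, whatever its height. The windows held 21 of the 33681 ATF3-Ctrl peaks, 39 of the 70231 ATF3-CPT peaks, 2 of the 2149 ATF3-KO peaks, 5 of the 9082 p53-CPT peaks and 2 of the 7768 p53-KO peaks. ATF3 and p53 binding had been profiled in HCT116, a colon cancer line of human origin, by 1 ChIP-seq library per condition, so no difference between libraries could be tested against replicate spread. ATF3-Ctrl and ATF3-CPT came from ATF3 wild-type cells that received DMSO (solvent) or 1.5 μM camptothecin (CPT, a topoisomerase I poison that breaks DNA) for 4 h. ATF3-KO came from DMSO-treated cells in which ATF3 had been knocked out by viral gene targeting, with no CPT-treated counterpart. The p53-CPT library came from p53 wild-type cells given CPT and the p53-KO library from p53-knockout cells given DMSO, so that genotype and treatment cannot be told apart in that pair. Cells were cross-linked with DSG (1 mM, 45 min) before formaldehyde (1%, 10 min). Libraries held 12820520 to 15457013 tags for ATF3, but only 3169743 for p53-CPT and 1984941 for p53-KO. Every listed peak had a findPeaks score, which counts at most 1 tag per position, of at least 9 in ATF3-Ctrl and ATF3-CPT, 11 in ATF3-KO, 7 in p53-CPT and 6 in p53-KO, so weaker binding was not detectable. Listing also required 4-fold enrichment over the local region of 10000 bp, with a limit of 0.0001 on the local Poisson p-value. A site with a sufficient score could therefore still be missing from a list.

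AP-1 is a dimer of basic leucine zipper (bZIP) proteins, in which a JUN protein pairs with itself, with a FOS protein or with a relative such as JDP2, BATF or an ATF protein. JUN-FOS dimers prefer the TPA response element TGACTCA, whereas dimers with ATF or CREB proteins also take the longer cyclic AMP response element (CRE) TGACGTCA. ATF3 is itself a bZIP protein that dimerizes with JUN proteins, and several AP-1 genes are immediate-early genes that carry such elements in their own promoters.

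The sequences below, from the GRCh37 (hg19) genome, are those of the sites on which the results turn, each read 5′ to 3′ along the strand of the AP-1 gene. The first set holds the highest ATF3-CPT peak of JUN, JUND, FOSB, FOSL1 and FOSL2, and further peaks of JUND, FOS, FOSL1 and JUNB that carry a core, a CArG box or a p53 overlap described below, with their distance from the TSS in bp. Capitals mark exact matches on either strand to TGACTCA, TGACGTCA or TGACATCA, a variant known from the JUN promoter. In FOS -340 they also mark a CArG box, the binding site of serum response factor, and the heptamer TGCGTCA behind it.
JUN -76 (ATF3-CPT, minus strand), chr1:59249734-59249858: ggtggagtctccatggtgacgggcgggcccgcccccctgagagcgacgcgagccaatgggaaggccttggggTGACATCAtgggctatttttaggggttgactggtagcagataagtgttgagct
JUND -195 (ATF3-Ctrl, minus strand), chr19:18392564-18392690: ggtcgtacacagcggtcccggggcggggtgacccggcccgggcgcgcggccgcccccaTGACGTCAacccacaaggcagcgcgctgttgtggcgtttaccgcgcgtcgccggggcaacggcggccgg
JUND -47 (ATF3-CPT, minus strand), chr19:18392417-18392541: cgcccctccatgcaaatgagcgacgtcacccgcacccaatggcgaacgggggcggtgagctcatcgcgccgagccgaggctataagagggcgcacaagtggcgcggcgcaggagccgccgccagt
FOSB -12071 (ATF3-CPT, plus strand), chr19:45959120-45959244: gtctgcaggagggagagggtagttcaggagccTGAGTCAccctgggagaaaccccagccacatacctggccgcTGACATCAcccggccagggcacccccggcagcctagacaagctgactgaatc
FOS -340 (ATF3-CPT, plus strand), chr14:75745127-75745251: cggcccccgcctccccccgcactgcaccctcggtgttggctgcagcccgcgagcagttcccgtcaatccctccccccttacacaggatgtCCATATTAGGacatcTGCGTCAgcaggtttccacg
FOS -1754 (ATF3-CPT, plus strand), chr14:75743713-75743837: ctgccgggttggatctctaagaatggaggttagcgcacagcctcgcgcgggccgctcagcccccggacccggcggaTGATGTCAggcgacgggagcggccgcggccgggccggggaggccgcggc
FOSL1 -2768 (ATF3-CPT, minus strand), chr11:65670750-65670874: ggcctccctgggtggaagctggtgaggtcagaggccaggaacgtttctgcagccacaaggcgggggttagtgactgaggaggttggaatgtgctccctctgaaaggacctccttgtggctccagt
FOSL1 -15295 (ATF3-CPT, minus strand), chr11:65683277-65683401: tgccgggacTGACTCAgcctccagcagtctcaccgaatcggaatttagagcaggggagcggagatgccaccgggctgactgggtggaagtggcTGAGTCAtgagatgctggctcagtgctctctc
FOSL1 +1168 (ATF3-CPT, minus strand), chr11:65666814-65666938: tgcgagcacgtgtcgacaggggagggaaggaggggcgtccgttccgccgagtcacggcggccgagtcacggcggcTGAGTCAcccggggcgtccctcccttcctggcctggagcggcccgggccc
FOSL2 +407 (ATF3-CPT, plus strand, part of the peak), chr2:28615660-28615736: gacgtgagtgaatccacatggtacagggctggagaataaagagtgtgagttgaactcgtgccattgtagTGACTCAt
JUNB -8367 (ATF3-CPT, plus strand), chr19:12893871-12893995: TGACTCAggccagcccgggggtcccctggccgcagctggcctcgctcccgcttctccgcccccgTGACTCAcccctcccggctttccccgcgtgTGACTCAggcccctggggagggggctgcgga

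Of the sites listed in both ATF3-Ctrl and ATF3-CPT, the second set holds both at which the ATF3 value was lower after CPT. Capitals mark TGATGCAA, which reads TTGCATCA on the other strand. It is the octamer of the C/EBP-ATF composite element, known as a binding site of ATF4 paired with a C/EBP protein.
FOSL2 -2130 (ATF3-CPT, plus strand), chr2:28613123-28613247: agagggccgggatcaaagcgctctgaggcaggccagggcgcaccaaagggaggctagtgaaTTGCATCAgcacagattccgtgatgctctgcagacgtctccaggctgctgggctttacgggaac
JDP2 +299 (ATF3-CPT, plus strand, part of the peak), chr14:75894656-75894744: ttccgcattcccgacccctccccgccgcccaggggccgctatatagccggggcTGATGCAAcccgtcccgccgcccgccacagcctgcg

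ATF3 peaks were found at 8 of the 10 genes in ATF3-Ctrl and at all 10 in ATF3-CPT. The background was high, since 65.2% of all protein-coding genes had an ATF3-Ctrl peak in such a window and 81% had an ATF3-CPT peak. ATF3-KO peaks were found at FOSB and FOSL1 (11.4% of all genes), p53-CPT peaks at FOSL1, FOSL2, JUNB and BATF (21.8%), and p53-KO peaks at FOSL2 and BATF (17.5%). There were more ATF3 peaks after CPT at 9 genes (63.4% of all genes), and JUN had 1 in each list. A median AP-1 gene had 2.5 ATF3-Ctrl and 4 ATF3-CPT peaks in a window of 27.9 kb, against 1 and 2 peaks over all genes, whose median window was 47.2 kb. Such medians were not particular to the family. They were 2.5 and 4.5 over 14 other bZIP genes (35.3 kb), and 1.5 and 3.5 over 10 genes known as AP-1 targets (29.7 kb).

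**Figure D1:**
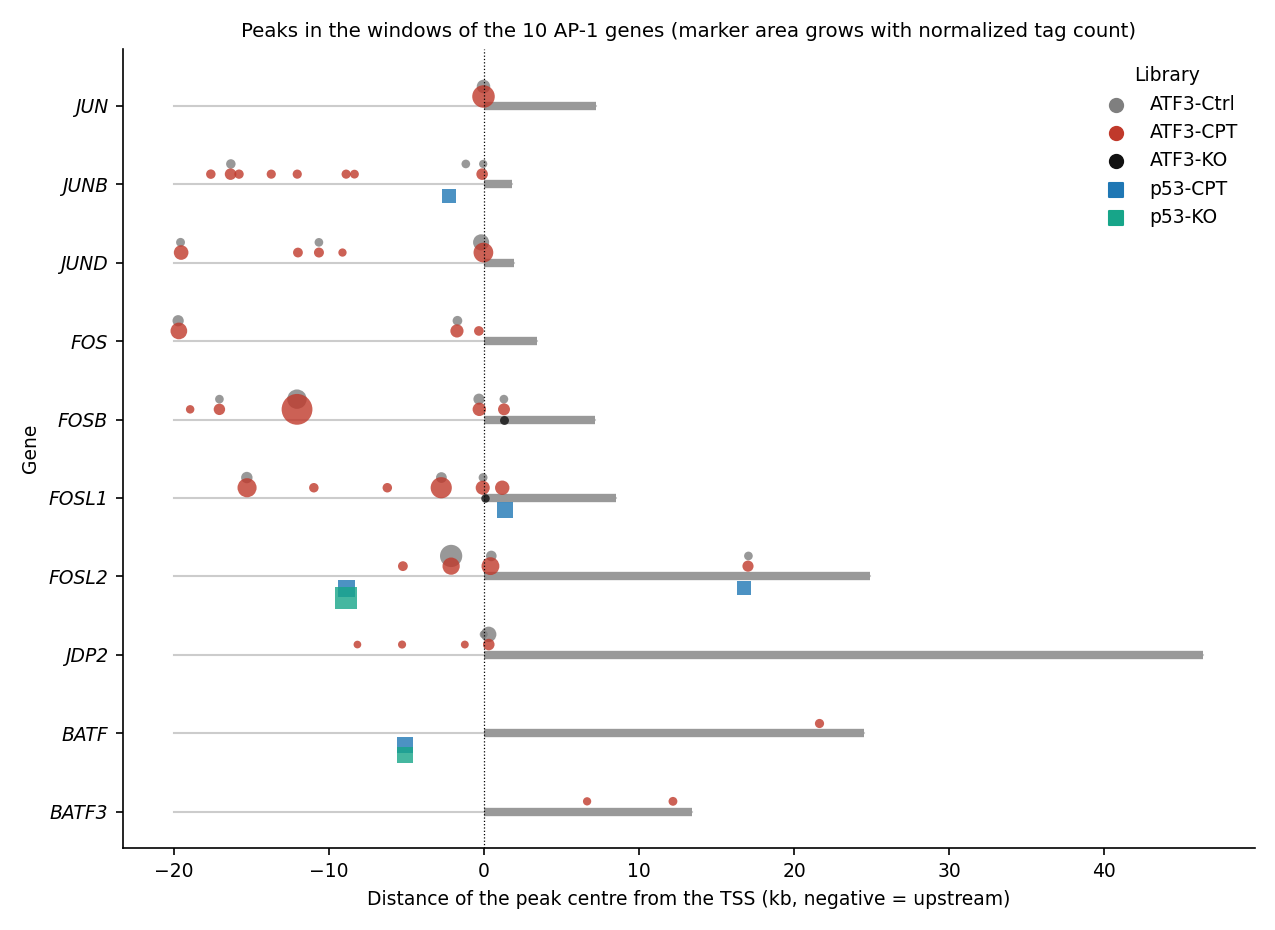
Peaks of the 5 lists in the windows of the 10 AP-1 genes, by distance of the peak centre from the TSS in kb. Thin lines show the 20 kb upstream, thick bars the gene, and marker area grows with the normalized tag count; the ATF3-CPT peak 12071 bp upstream of FOSB (191.5) is the highest of all, and BATF and BATF3 have no ATF3-Ctrl peak.

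Peak heights below are normalized tag counts, that is, tags in the peak per 10000000 tags of the library, with exact Poisson 95% intervals that cover counting error only. At the highest peak of each gene, the ATF3-CPT values ran from 191.5 (170–215) at FOSB through 99 (83.9–116) at JUN, 86.7 (72.6–103) at FOSL1, 74.4 (61.4–89.3) at JUND, 59.5 (48–73) at FOSL2 and 51.1 (40.5–63.7) at FOS to 20.7 (14.2–29.2) at both JUNB and JDP2. BATF, with 10.4 (5.92–16.8), and BATF3, with 9.1 (4.95–15.2), came last. FOSB stood above JUN by 1.93-fold (1.59–2.37), whereas the neighbours from JUN down to FOS did not differ beyond their counting error, and neither did JUNB from JDP2 or BATF from BATF3.

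The order was another one in ATF3-Ctrl, where FOSL2 led with 96.5 (80.4–115), followed by FOSB with 71.8 (58–88), JUND with 47.1 (36–60.5), JDP2 with 42.5 (32–55.3) and JUN with 30.9 (22.1–42.1). FOSL1 had 20.1 (13.1–29.4), FOS 19.3 (12.5–28.5) and JUNB 11.6 (6.48–19.1). FOSL2 exceeded FOSB by 1.34-fold (1.02–1.78) and FOSB exceeded JUND by 1.52-fold (1.09–2.14), but no other neighbours differed beyond counting error. Ranked by their highest peak, FOSB was in the top 3.48% of the 13132 genes with an ATF3-Ctrl peak and in the top 0.392% of the 16320 genes with an ATF3-CPT peak. The same shares were 16.9% and 3.8% at JUN, 30.4% and 5.47% at FOSL1, 31.9% and 16.7% at FOS, 57.4% and 49.6% at JUNB and 8.19% and 8.05% at JUND. JDP2, with 9.81% and 49.6%, and FOSL2, with 1.86% and 12.5%, stood lower among the genes in ATF3-CPT than in ATF3-Ctrl.

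**Figure D2:**
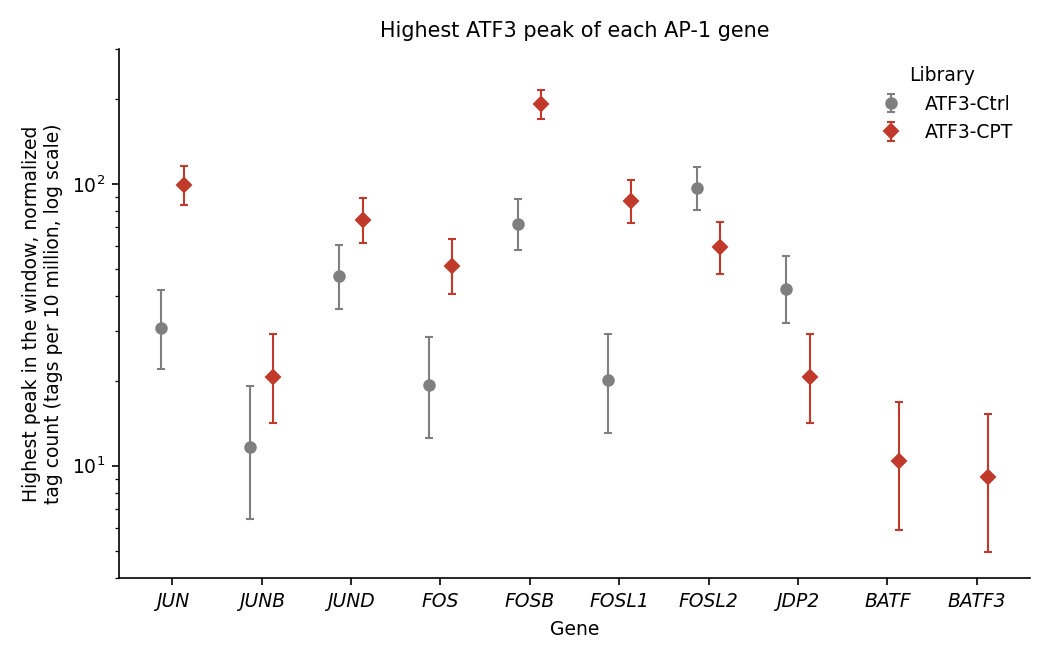
Highest ATF3 peak in the window of each AP-1 gene (log scale, normalized tag count) in ATF3-Ctrl (circles) and ATF3-CPT (diamonds), with exact Poisson 95% intervals of the counts. ATF3-CPT lies above ATF3-Ctrl at JUN, JUNB, JUND, FOS, FOSB and FOSL1 and below it at FOSL2 and JDP2, though the highest peak of FOSL2, FOSL1 and JUND was not the same site in both libraries.

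The 60 ATF3 peaks of wild-type cells fell on 42 sites, counting peaks that shared at least 1 bp as 1 site. Of these, 18 were found in both lists, 3 only in ATF3-Ctrl (14.3% of its 21 peaks, against 20.1% of all ATF3-Ctrl peaks) and 21 only in ATF3-CPT (53.8% of 39, against 61.7%). At the shared sites the centres of both peaks lay a median of 20 bp and at most 69 bp apart. The value was at least 2-fold higher in ATF3-CPT at 13 of the 18 shared sites (72.2%), where this held for 43.9% of all 26906 paired sites. It was at least 2-fold lower at 1 site, against 2.16% of all pairs, and lay between these bounds at 4. The median ratio of ATF3-CPT to ATF3-Ctrl was 2.65 over the 18 sites and 1.81 over all pairs. ATF3-CPT also had more of its tags in peaks as a whole (12.76%, against 5.6% in ATF3-Ctrl; ATF3-KO had 0.56%), and the part of this difference in the ratios was not tested. When each ratio was divided by 1.81, 4 sites remained at least 2-fold higher and 2 were at least 2-fold lower.

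Peaks in the genes' own promoters (within 2 kb of the TSS) made up 11 of the 21 ATF3-Ctrl peaks and 12 of the 39 ATF3-CPT peaks, against 21.5% and 16.8% of all peaks that lay that near to any TSS. The windows favour promoters by construction, so these shares are not like for like. Of 8 shared sites in own promoters, 6 were at least 2-fold higher in ATF3-CPT (24.3% of all paired promoter peaks) and 1 was lower (1.16%). Of the 10 shared sites elsewhere, 7 were at least 2-fold higher (49.4% of all paired distal peaks) and none lower (2.44%).

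**Figure D3:**
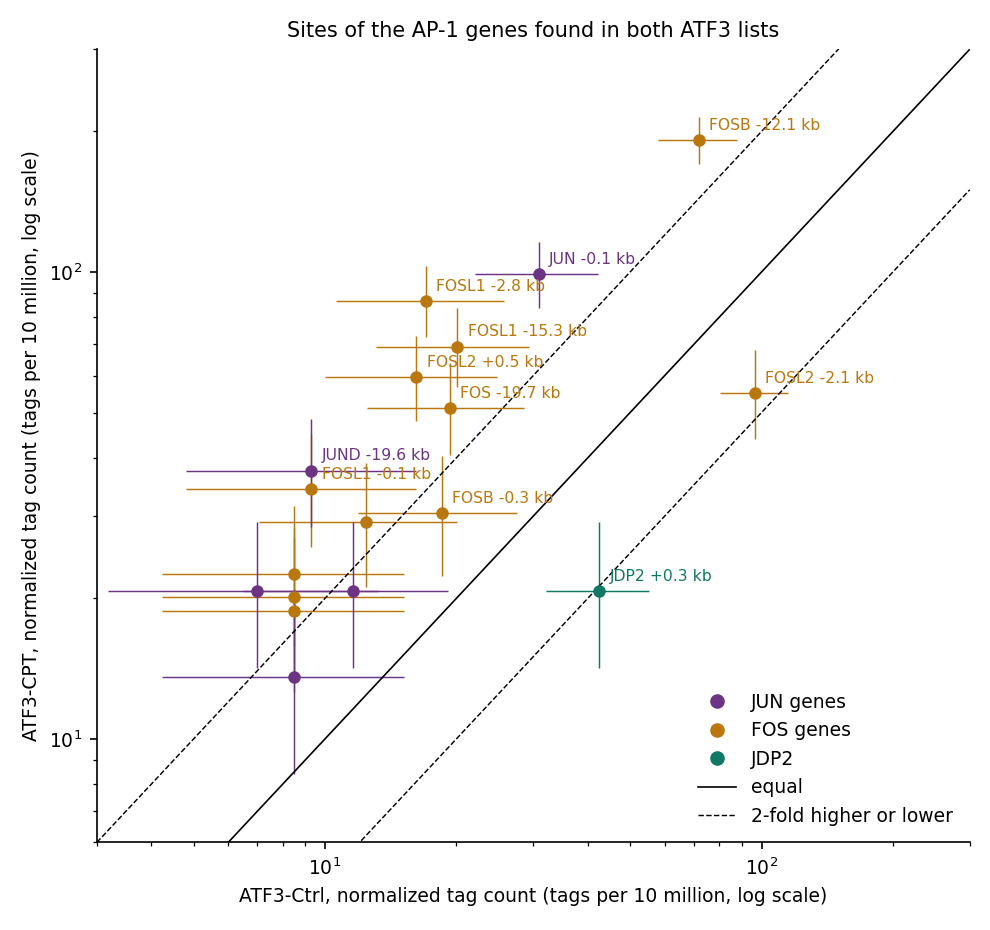
Normalized tag counts (log scales) of the 18 shared sites in ATF3-Ctrl and ATF3-CPT, with exact Poisson 95% intervals. The solid line marks equal values and dashed lines 2-fold differences: 13 sites lie above the upper dashed line, the FOSL2 site 2130 bp upstream and the JDP2 site lie below the solid line, and the unlabelled points at the lower left are weak sites of FOS, FOSB, FOSL2, JUNB and JUND.

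JUN encodes c-JUN, the partner common to most AP-1 dimers. Its window held a single ATF3 site, at the start of the gene, with a value of 30.9 in ATF3-Ctrl and 99 in ATF3-CPT and no peak in ATF3-KO, p53-CPT or p53-KO. The value was 3.2-fold higher in ATF3-CPT (2.25–4.66), and 2.56-fold higher by findPeaks score per total tags. Both peaks covered the sequence TGACATCA centred 62 bp upstream of the TSS, an element through which JUN is known to respond to JUN-ATF2 dimers. The peak centre moved from 51 to 76 bp upstream of the TSS, so that TGACATCA lay 11 bp from the ATF3-Ctrl centre and 14 bp from the ATF3-CPT centre, on opposite sides.

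At JUND, which encodes an AP-1 subunit present in resting cells, the promoter was occupied in both libraries but not by overlapping peaks. The ATF3-Ctrl peak at chr19:18392564-18392690 had a value of 47.1, and TGACGTCA lay 1 bp from its centre. The ATF3-CPT peak at chr19:18392417-18392541 had a value of 74.4 and held no exact match to the 3 cores. The peak centres lay 148 bp apart and the peak edges were separated by 22 bp. Hence both peaks counted as found in 1 list only, although the value in ATF3-CPT was 1.58-fold that of the neighbouring ATF3-Ctrl peak (1.15–2.19). The peak caller also kept a minimum spacing between peaks of the same list (ATF3-Ctrl 252 bp, ATF3-CPT 248 bp). Neither list could therefore hold both positions, and whether the bound site moved was not tested. In the distal part of the JUND window, a site with TGACTCA that was 19587 bp upstream of the TSS went from 9.3 to 37.5, a ratio of 4.03 (2.15–8.28). A second shared site, at -10660, had values of 8.5 and 13.6, which did not differ beyond counting error (ratio 1.6, 0.737–3.67). Peaks at -9139 (7.1) and -12012 (12.9, with TGACTCA) were found only in ATF3-CPT.

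JUNB, whose product is a JUN protein that also acts as a brake on c-JUN, had the most ATF3-CPT peaks of the family, 8, but none above 20.7. The start-site peak went from 7 in ATF3-Ctrl to 20.7 in ATF3-CPT, a ratio of 2.96 (1.39–7.09). Its ATF3-Ctrl score was 9, the lowest in that list. The centres of both start-site peaks lay 69 bp apart, and they were no longer paired when each had to cover 50% of the other. At the shared site 16341 bp upstream, in an intron of HOOK2, the values were 11.6 and 20.7, with an interval of the ratio (1.78, 0.94–3.55) that included 1. The 6 peaks found only in ATF3-CPT lay between 8367 and 17632 bp upstream. Their values of 9.1 to 11.6 were close to the median of all ATF3-CPT peaks (11). Those at -17632, -15812 and -13734 also had their centres in introns of HOOK2. The peak at -8367, with a value of 9.1, held TGACTCA 3 times, more than any other ATF3 peak of the family. An ATF3-Ctrl peak at -1182 (8.5) had no ATF3-CPT counterpart.

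FOS encodes c-FOS, the best-known immediate-early protein. Both of its ATF3-Ctrl sites were higher in ATF3-CPT: the distal site at -19741 went from 19.3 to 51.1 (ratio 2.65, 1.67–4.33) and the site at -1722 from 12.4 to 29.1 (ratio 2.35, 1.31–4.47). The latter held TGACATCA, read as TGATGTCA on the plus strand and centred 1737 bp upstream. The third peak, 340 bp upstream and found only in ATF3-CPT, had a value of 12.3. It covered a CArG box centred at -308 followed by TGCGTCA at -294, the arrangement known as the serum response element and its neighbouring FAP element. Of the 39 ATF3-CPT peaks of the family, 2 held a CArG box (0.572% of all ATF3-CPT peaks) and 3 held TGCGTCA (1.77%). In sequences of the same width 1000 bp beside ATF3-CPT peaks, the shares were 0.629% and 0.292%. Neither ATF3-KO nor the p53 lists had a peak in the FOS window.

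FOSB, which encodes a close relative of c-FOS, carried the highest ATF3 peak of the family. At chr19:45959120-45959244, 12071 bp upstream of FOSB and within an intron of a long ERCC1 transcript on the opposite strand, the value was 71.8 in ATF3-Ctrl and 191.5 in ATF3-CPT. The ratio was 2.67 (2.11–3.4) by normalized tag count, but 2 by findPeaks score per total tags (scores of 69 and 165). In ATF3-CPT this was peak number 86 of 70231 by height. It held both TGACTCA, read as TGAGTCA and centred at -12098, and TGACATCA, centred at -12057. The FOSB promoter site was 18.5 in ATF3-Ctrl and 30.4 in ATF3-CPT, which did not differ beyond counting error (ratio 1.64, 0.983–2.8).

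The other shared FOSB sites were weak in ATF3-Ctrl. The site at -17078 went from 8.5 to 20.1 (ratio 2.36, 1.15–5.21). The site at +1275, in an intron, went from 8.5 to 22.6 (ratio 2.66, 1.32–5.82) and was also found in ATF3-KO with a value of 9.4. ATF3-Ctrl did not exceed ATF3-KO there beyond counting error (0.904-fold, 0.363–2.25), whereas ATF3-CPT was 2.4-fold higher than ATF3-KO (1.23–5.12). A weak peak at -18966 (7.8) was found only in ATF3-CPT and held TGACTCA.

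FOSL1 encodes FRA1, a FOS protein without the transactivation domain of c-FOS, and its window had the largest ratio of the family. The site 2757 bp upstream went from 17 in ATF3-Ctrl to 86.7 in ATF3-CPT, a ratio of 5.1 (3.23–8.41) that was exceeded at 1.14% of all paired sites. By findPeaks score per total tags the ratio was 3.69 (scores of 22 and 97). Neither peak at this site held an exact match to the 3 cores. The site at -15310, which held TGACTCA in both orientations and lay nearer to the TSS of C11orf68, went from 20.1 to 69.2 (ratio 3.44, 2.23–5.52). The start-site peak went from 9.3 to 34.3 (ratio 3.69, 1.95–7.61). An ATF3-KO peak of 7.8 shared 23 bp with the ATF3-Ctrl peak at the start site and none with the ATF3-CPT peak. The ATF3-Ctrl peak did not differ from the ATF3-KO peak beyond counting error (1.19-fold, 0.47–3.07), and the ATF3-CPT peak was 4.4-fold higher (2.21–9.69). Both ratios set neighbouring stretches of unlike width side by side, which the intervals do not cover. A site in an intron 1168 bp downstream of the TSS was found only in ATF3-CPT with a value of 36.2, and held TGACTCA. The remaining ATF3-CPT peaks, at -6247 and -10986, both had a value of 11.6 and held TGACTCA once and in 2 copies.

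FOSL2, which encodes FRA2, was the one FOS gene with sites that differed in opposite directions. The site 2130 bp upstream was the highest of the family in ATF3-Ctrl (96.5) and had a value of 55 in ATF3-CPT, a ratio of 0.57 (0.427–0.756). The site at +463 went from 16.2 to 59.5 (ratio 3.67, 2.27–6.21), and both peaks covered TGACTCA at +417. A site with TGACTCA inside the gene, at +17050, went from 8.5 to 18.8 (ratio 2.21, 1.07–4.9), and a peak at -5241 (12.9, with TGACTCA) was found only in ATF3-CPT. Per findPeaks score and total tags, the ratio at -2130 was 0.576, and that at +463 was 3.07.

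JDP2 encodes a bZIP repressor that pairs with JUN proteins and is the closest relative of ATF3 in the family. Its main site, 294 bp downstream of the TSS, went from 42.5 in ATF3-Ctrl to 20.7 in ATF3-CPT, a ratio of 0.487 (0.305–0.767). This was the only shared family site at least 2-fold lower after CPT, and by findPeaks score per total tags the ratio was 0.509. Sites found only in ATF3-Ctrl had no ratio, so a loss there was not measured. A peak at -27 (6.2) was found only in ATF3-Ctrl, and peaks of 5.2 to 6.5 at -8175, -5295 and -1246 only in ATF3-CPT. BATF and BATF3 encode AP-1 partners known from immune cells. BATF had 1 ATF3 peak, with a value of 10.4 and TGACATCA, near its end, at +21585. BATF3 had peaks at +6642 (7.1) and +12181 (9.1, with TGACTCA), and all 3 peaks were found only in ATF3-CPT.

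Both lower shared sites held TGATGCAA at their centre. The octamer lay 2 bp from the centre of the FOSL2 -2130 peak in both libraries, and 1 and 6 bp from the centre of the JDP2 peak in ATF3-Ctrl and ATF3-CPT. No other ATF3 peak of the 10 genes held it (2 of 21 ATF3-Ctrl peaks, against 13.3% of all, and 2 of 39 ATF3-CPT peaks, against 3.51%). The octamer was searched after these values had been seen. Over the whole lists, it was in 0.338% of sequences of the same width 1000 bp beside ATF3-Ctrl peaks and in 0.372% of ATF3-KO peaks. Of the 4483 ATF3-Ctrl peaks with TGATGCAA, 55% had no ATF3-CPT peak, against 20.1% of all ATF3-Ctrl peaks. At the 2030 paired sites with the octamer, the median ratio of ATF3-CPT to ATF3-Ctrl was 0.798, with 12.4% at least 2-fold lower. Pairs with given letters included some in which only the ATF3-CPT peak held them. At the 10834 pairs with TGACTCA, the median ratio was 2.4 and 0.0554% were at least 2-fold lower. The 14590 pairs with none of the 3 cores, which include octamer pairs, had a median ratio of 1.3, with 3.93% at least 2-fold lower. Of the pairs with the octamer, 70.1% had a lower value in ATF3-CPT, against 19.2% of all pairs and 32.1% of those with none of the 3 cores. The place of the FOSL2 and JDP2 sites among them is no independent result, because the octamer was searched after their values had been seen.

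**Figure D4:**
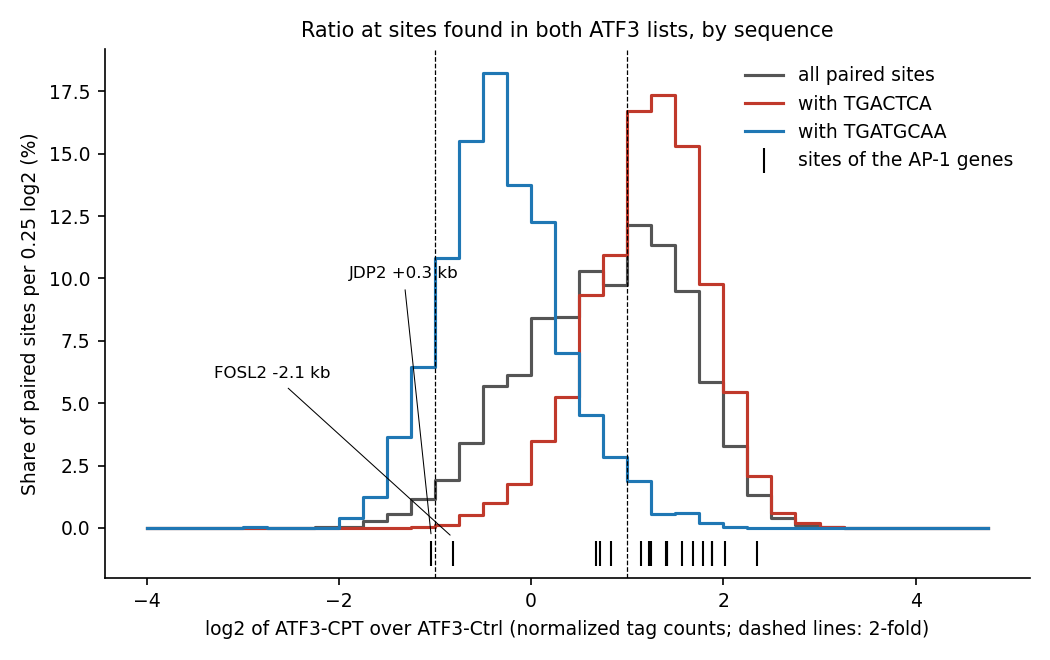
Distribution of the log2 ratio of ATF3-CPT to ATF3-Ctrl over all 26906 paired sites, the 10834 with TGACTCA and the 2030 with TGATGCAA, as percent of each set per 0.25 log2; ticks mark the 18 shared sites of the AP-1 genes. The JDP2 site (ratio 0.487) and the FOSL2 site 2130 bp upstream (0.57) lie to the left of 0, among the pairs with TGATGCAA, and the other 16 sites lie to the right.

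TGACTCA was found in 13 of the 39 ATF3-CPT peaks (40.6% of all ATF3-CPT peaks) and in 5 of the 21 ATF3-Ctrl peaks (31% of all). It was in 2 of the 12 ATF3-CPT peaks in own promoters (14% of all peaks within 2 kb of a TSS), those of FOSL1 and FOSL2 downstream of the TSS, and in 11 of the 27 elsewhere (45.9% of all peaks beyond 2 kb). TGACATCA was in 4 of 39 ATF3-CPT peaks, at JUN, FOS, FOSB and BATF (4.87% of all). The counts were thus near the background for TGACTCA. An absent match says only that these letters were not in the peak. With 1 mismatch allowed, 26 of 39 matched TGACTCA. The share of all peaks or of flanking sequences with such a match was not computed, so this count has no background.

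Of the 21 sites found only in ATF3-CPT, 17 lay outside the own promoters. Their values ran from 5.2 to 74.4 with a median of 10.4, and JUND -47 and FOSL1 +1168 were the highest. Scaled by total tags to the depth of ATF3-Ctrl, 19 of their 21 scores would have reached the lowest score of 9 in that list. JDP2 -8175 and -1246 (7.54 each) would not. This scaling is an approximation because the score counts positions. It also made no allowance for the larger share of tags in peaks (12.76% in ATF3-CPT, 5.6% in ATF3-Ctrl). Nor did it allow for the median ratio of 1.81 over all paired sites. Whether the 19 scores would still reach 9 with such allowances was not tested. JUND -47 could not be listed beside the ATF3-Ctrl peak of that promoter, given the minimum spacing of 252 bp. ATF3-KO, with its 2 family peaks, overlapped 2 of the 21 ATF3-Ctrl peaks (5.23% of all ATF3-Ctrl peaks) and 1 of the 39 ATF3-CPT peaks (2.53%). Of the 19 ATF3-Ctrl peaks without an ATF3-KO peak, 15 had scores that, scaled in the same way, reached the lowest ATF3-KO score of 11, and the other 4 came to 8.91 to 10.9.

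p53 and ATF3 peaks met at 1 family site. In the FOSL1 intron, a p53-CPT peak at +1353 with a value of 41 (21.8–70.1) shared 37 bp with the ATF3-CPT peak at +1168 (1 of 39, against 1.33% of all ATF3-CPT peaks, and 1 of 5 p53-CPT peaks, against 10.2%). It held a p53 motif with 2 mismatches, GGACTTGCCTGGGCTTGTGG, centred at +1336 and 152 bp from TGACTCA. At FOSL2, the p53-CPT peak at +16753 (34.7, 17.3–62.1) held GGGCAGGTCCAGACCTGCCC, also with 2 mismatches, at +16772. The nearest ATF3-CPT peak, at +17022, was separated from it by 47 bp, and its TGACTCA was 248 bp away from the motif. Both motif sequences are from GRCh37 and run along the strand of the gene, minus for FOSL1 and plus for FOSL2.

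The remaining p53-CPT peaks were at FOSL2 -8900 (53.6), BATF -5121 (50.5) and JUNB -2282 (31.5). Those at FOSL2 -8900 and BATF were also in p53-KO, with values of 90.7 and 45.3, as were 60.9% of all p53-CPT peaks, so they were called in cells that lack p53. The motif with at most 3 mismatches was in 3 of the 5 p53-CPT peaks (20.3% of all), including FOSL2 -8900 with 3 mismatches. It was also in 7.13% of sequences of the same width 1000 bp beside p53-CPT peaks. The match at FOSL2 -8900 lay 135 bp from the peak centre, and 2 of the 5 peaks had a match within the 200 bp around the centre. Scaled to the small p53-KO library, the scores of the FOSL1, FOSL2 +16753 and JUNB peaks came to 6.89, 6.89 and 6.26, just above its lowest score of 6, so binding at these levels was close to the limit of detection there.

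For comparison with related genes, a list of 14 other bZIP genes (ATF, MAF, BACH and NFE2L genes and BATF2) had ATF3-Ctrl peaks at 12 and ATF3-CPT peaks at 13 of them, with 57 and 94 peaks. BACH2 (21, in a window of 390.3 kb) and NFE2L2 (17, in 194.1 kb) had the most ATF3-CPT peaks and MAF (0, in 34.9 kb) the fewest, and these counts were not adjusted for window length.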

How the data were processed

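ATF3 and p53 ChIP-seq of 5 libraries was used. The deposited lists hold peaks that the authors called in each library separately with findPeaks of HOMER, without an input library. Per the submitters' processing notes, BWA 0.6.1 and HOMER 4.1 were used, on hg19. Peak height, as deposited, is a signal (normalized tag count) that the authors scaled to 10000000 tags. The deposited findPeaks score counts at most 1 tag per position and was not scaled by the authors. Deposited fold enrichments and p-values over the local region, the fraction of tags near the centre and the clonal fold change, all by the authors, were not used in a comparison. A peak called without input can rest on local chromatin or copy number, and the 5 libraries had different score thresholds and peak widths (124 to 318 bp).

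Peaks on chromosomes 1 to 22, X and Y were assigned to windows from the GENCODE annotation on GRCh37. Peaks of ATF3-Ctrl and ATF3-CPT were paired at 1 bp of overlap, the higher ATF3-CPT peak being used. Ratios have exact conditional (Clopper-Pearson) 95% intervals on the recovered tags, which cover counting error only, and no p-value was computed because each condition had 1 library. Motifs were searched on both strands, the p53 motif (2 copies of its decamer without spacer) with at most 3 mismatches. The whole lists gave the background shares. The code, in Python 3.11.15 with pandas 2.3.3 and scipy 1.17.1, was tested on simulated data. All 10 members were described. Other genes were named where they lay nearer to or around a member's peak, and at most 4 of the bZIP and AP-1 target lists by their number of peaks. The members and lists were chosen with earlier results of these data known, and TGATGCAA, TGCGTCA and the CArG box were searched after the values had been seen. The sequence of 1 promoter site is not reported here.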

Additional observations from a re-analysis of the deposited data

How the results depend on the processing

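No paired analysis was possible because each condition had 1 library. Counts of peaks depended on the window and on the score required. With 2 kb on either side of the TSS, the windows held 11 ATF3-Ctrl, 12 ATF3-CPT, 1 p53-CPT and 0 p53-KO peaks. With 50 kb upstream they held 63 ATF3-CPT and 4 ATF3-KO peaks, and with a score of at least 20 they held 10 ATF3-Ctrl, 23 ATF3-CPT, 0 ATF3-KO, 0 p53-CPT and 0 p53-KO peaks. Of the sites in ATF3-Ctrl only, 1 remained at that score. Divided by the median ratio of all pairs, 4 shared sites were at least 2-fold higher and 2 at least 2-fold lower, with a median of 1.47. By findPeaks score, 0 sites were at least 2-fold lower, since JDP2 lay at 0.509, and at a 1.5-fold threshold 2 were lower. With centres within 200 bp, 2 ATF3-CPT peaks met an ATF3-KO peak, and, chosen after seeing the data, JUND counted as shared, which left 2 sites in ATF3-Ctrl only and 20 in ATF3-CPT only. With 1 mismatch, TGACTCA matched 10 ATF3-Ctrl and 26 ATF3-CPT peaks, TGACGTCA 8 and 12, and TGACATCA 6 and 9. No background shares were computed for matches with 1 mismatch. The other 65 alternative values of counts and medians lay within 1.5-fold of the reported ones, and no ratio whose interval excluded 1 changed direction. Divided by the median ratio, the ratios at JUNB -16341, JUND -10660 and FOSB -335, whose intervals included 1, fell below 1 (0.988, 0.886 and 0.91). Only peaks that passed the score threshold, the local limits and the minimum spacing were deposited. A site in 1 list may therefore have been bound but not listed in the other.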

Other observations

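A list of 10 genes known as AP-1 targets had ATF3-Ctrl peaks at 8 and ATF3-CPT peaks at all 10 genes, with 25 and 45 peaks in the same kind of window. CD44, which encodes a hyaluronan receptor, had the most ATF3-CPT peaks (14, in the window of 113.5 kb), and the matrix metalloproteinase genes MMP13, MMP3 and MMP9 had 1 each. No gene of the list had an ATF3-KO peak, and PLAUR, the urokinase receptor gene, had 1 peak in each p53 list.

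Sites with the other elements searched stood between those with TGACTCA and those with TGATGCAA. The median ratio of ATF3-CPT to ATF3-Ctrl was 1.96 over 665 paired sites with TGACGTCA, 2.27 at those with TGACATCA and 1.3 over 856 with TGCGTCA. The median over the 160 paired promoter sites with TGATGCAA was 0.731, and over the 1870 distal ones 0.817.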
